A study of Mus musculus with 24 samples.

Results

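Long intergenic noncoding RNAs (lincRNAs) of gastrocnemius, the large calf muscle, were described in tumour-bearing and vehicle mice of both sexes. The genes were chosen by their measured level and their class: those classed as lincRNA in the deposited count table, on chromosomes 1 to 19, with a mean of at least 1 CPM (counts per mega-count of the column total) over all 24 libraries. That selected 312 of the 2355 lincRNA genes on these chromosomes, of 43346 genes in the table. A further 723 of the 2355 had 0 counts in every library. All 312 passed the filter on low counts, and 304 also reached 1 CPM over the vehicle libraries alone. Their levels are a description and not a finding. Just inside the minimum stood Gm16548 and 0610043K17Rik at 1.02 CPM and RP23-445K23.6 at 1.01 CPM. Just outside it stood Gm26823 at 0.982, 4831440E17Rik at 0.975 and Gm26542 at 0.964 CPM.

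The mice were C57BL6 and carried no engineered allele in the labels. At 7 weeks of age they received a subcutaneous injection of LLC1, a Lewis lung carcinoma line of C57BL origin that is widely used to model cancer cachexia, or of PBS as vehicle, and the muscle was taken 3 weeks later. The 4 groups of 6 mice were vehicle females (fPBS), LLC1 females (fLLC), vehicle males (mPBS) and LLC1 males (mLLC). Since every group had 1 sequencing lane to itself, effects of lane and of group cannot be told apart.

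A lincRNA is spliced and usually polyadenylated like a messenger RNA but encodes no long protein. Known examples hold nuclear bodies together, act on imprinted neighbours, or serve as precursors from which small nucleolar RNAs (snoRNAs) or microRNAs are cut. Skeletal muscle is known for high H19, an imprinted fetal growth regulator that stays on in adult muscle, and for lincRNAs that carry the muscle microRNAs.

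Sequence ties several of the lincRNAs described here to small RNAs. Not all 312 spans were searched for microRNA genes. The 19 genes not in GENCODE M21 have no known strand here. The genes on the chromosome of Mir143hg, itself a microRNA host, were left out. Among the spans searched, by the RefSeq annotation of GRCm38.p6, 11 held microRNA genes on their own strand, 32 genes in all. Of these hosts, Gm28653, Gm27028, Meg3, Mirg and H19 share no reads and passed a test below, and 1 or 2 of the mature microRNAs of each are shown 5′ to 3′ with the seed, bases 2 to 8, in capitals. Mirg holds 14 of the microRNA genes, with 26 mature microRNAs. These are reference sequences, and the libraries of poly(A) RNA do not measure mature microRNAs.
miR-206-3p, in Gm28653, chr1:20679055-20679076, + strand: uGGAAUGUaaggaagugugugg
miR-133b-3p, in Gm28653, chr1:20682834-20682855, + strand: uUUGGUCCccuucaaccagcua
miR-30c-5p, in Gm27028, chr1:23291714-23291736, + strand: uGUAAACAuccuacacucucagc
miR-770-5p, in Meg3, chr12:109563710-109563731, + strand: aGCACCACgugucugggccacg
miR-382-5p, in Mirg, chr12:109733781-109733802, + strand: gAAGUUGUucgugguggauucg
miR-134-5p, in Mirg, chr12:109734145-109734166, + strand: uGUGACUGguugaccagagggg
miR-675-5p, in H19, chr7:142577112-142577133, - strand: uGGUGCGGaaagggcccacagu
No seed is common to any pair of these 7 sequences. Seeds were shared within a host: miR-17-5p with miR-20a-5p and miR-19a-3p with miR-19b-3p in Mir17hg, miR-29b-3p with miR-29c-3p in A330023F24Rik, and miR-453 with miR-496a-5p in Mirg. Neither Mir17hg nor A330023F24Rik passed the test in any comparison.

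Promoters are shown for 3 snoRNA hosts, because Snhg1 and Snhg12 rose together in males while Snhg18 fell in females. Many snoRNA host genes are known to begin with a terminal oligopyrimidine tract, a run of C and T at the start of the transcript that couples their RNA to translation control. Each sequence runs from 250 bases before the RefSeq start to 50 after it (GRCm38.p6). The longest run of C or T that reaches within 10 bases of the start is in capitals.
Snhg1, chr19:8723237-8723536, + strand: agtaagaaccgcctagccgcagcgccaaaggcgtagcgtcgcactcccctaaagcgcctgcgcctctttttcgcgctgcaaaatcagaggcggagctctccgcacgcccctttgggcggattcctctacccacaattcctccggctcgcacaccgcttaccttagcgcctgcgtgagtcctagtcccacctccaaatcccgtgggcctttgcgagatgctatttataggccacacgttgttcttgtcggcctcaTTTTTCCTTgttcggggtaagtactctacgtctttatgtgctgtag
Snhg12, chr4:132308428-132308727, + strand: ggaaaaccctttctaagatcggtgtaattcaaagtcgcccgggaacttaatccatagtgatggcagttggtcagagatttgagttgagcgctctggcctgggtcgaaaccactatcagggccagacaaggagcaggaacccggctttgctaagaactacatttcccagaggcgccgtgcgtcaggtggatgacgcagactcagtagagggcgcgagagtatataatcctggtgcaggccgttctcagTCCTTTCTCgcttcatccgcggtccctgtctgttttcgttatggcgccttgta
Snhg18, chr15:32244613-32244912, - strand: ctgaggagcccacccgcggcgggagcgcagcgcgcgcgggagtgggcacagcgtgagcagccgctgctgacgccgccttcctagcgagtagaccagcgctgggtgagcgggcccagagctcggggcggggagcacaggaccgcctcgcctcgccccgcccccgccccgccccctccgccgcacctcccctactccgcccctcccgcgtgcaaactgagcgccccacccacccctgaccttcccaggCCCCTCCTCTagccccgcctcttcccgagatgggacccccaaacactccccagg
The run is 9 bases long in Snhg1 and in Snhg12 and 10 in Snhg18, so the host that fell has it as well. In Snhg12 it spans the start, and in Snhg1 it begins at base 5 of the transcript. A run of at least 8 on this strand was found in 6 of 20 promoters of the 18 listed snoRNA hosts that had one and in 13.7% of 32851 promoters of the same length. For a run of at least 6 the values were 11 of 20 and 29.2%, and for at least 10 they were 1 of 20 and 6.97%. The palindrome CACGTG, read alike on both strands, was in none of these 3 windows and in 7.15% of all promoters. RefSeq promoters were matched for 115 of the 312 lincRNAs.

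Levels spanned over 4 orders of magnitude, and most were low. The median lincRNA had a mean of 3.32 CPM, 62 reached 10 CPM, 9 reached 100 CPM and 92 lay under 2 CPM. Libraries held between 26.2 and 47.4 M (mega) counts, so that 1 CPM corresponds to between 26.2 and 47.4 counts. From here on, levels are CPM of the TMM-scaled library size. Calls were made with edgeR's quasi-likelihood F-test at a Benjamini-Hochberg adjusted p under 0.05 over 17773 genes, and log2 fold changes carry their SE. The muscle fibre markers fixed for the check of tissue summed to between 147400 and 233400 CPM in every library. None of them was at 0 over all libraries together.

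The name lincRNA covers genes with different surroundings. The spans of 174 of the 312 overlapped a protein-coding gene, 63 lay within 5 kb of one and 75 lay farther away. GENCODE M21 retained 200 as lincRNA, called 63 antisense and no longer held 19. The libraries keep no strand, and 134 lincRNAs were taken to share reads with another gene. By that rule at least 10% of their exon length overlapped a gene with at least 0.5 times their counts. The other 178 fell short of it and are called lincRNAs that share no reads. The label rests on overlap alone, and smaller shares of reads were not measured. For the 19 genes not in M21 the whole span stood in for exons.

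One gene model dominated the counts. Yam1 (Gm42418 in M21), a model over ribosomal RNA sequence on chr17:39846958-39848788, had a mean of 29495 CPM and took 2.25 to 4.10% of all counts in a library. The other 311 genes together took 0.642 to 0.887%. Yam1 shares reads with AY036118 and did not pass the test in any comparison. Its log2 fold changes were -0.01 ± 0.13 (SE) in females and -0.19 ± 0.13 in males, with adjusted p = 0.974 and 0.249.

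Below it stood the nuclear lincRNAs. Malat1, the RNA of nuclear speckles where splicing factors gather, had a mean of 2015 CPM, and Neat1, the scaffold of paraspeckles, had 1030 CPM. 1700020I14Rik followed at 803 CPM and H19 at 592 CPM. Per kb of gene model the order changed: Malat1 had 289, H19 250, 1700020I14Rik 96.6 and Neat1 49.6 CPM per kb. The length is that of the whole model, 20771 bases for Neat1, and shorter and longer transcripts of a gene were not told apart. Gm26899 over Zfp106, Gm26762 over Gpi1 and Gm26604 over Ryr1, the calcium release channel, were also among the 10 highest, and each shares reads with the gene it overlaps.

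Neither Malat1 nor Neat1 passed the test with the tumour. Malat1 was 1618, 1708 and 2042 CPM (lowest, median and highest) in fPBS, 1534, 1867 and 2413 in fLLC, 1995, 2310 and 2967 in mPBS, and 1679, 1942 and 2555 in mLLC. The LLC1 and vehicle groups overlapped in both sexes. Its log2 fold changes with LLC1 were 0.09 ± 0.12 in females and -0.19 ± 0.12 in males (adjusted p = 0.681 and 0.227). Neat1 had medians of 940 in fPBS, 956 in fLLC, 1060 in mPBS and 1036 in mLLC, with log2 fold changes of 0.11 ± 0.18 and -0.01 ± 0.18. The genes for the proteins of these bodies were listed separately. Of 12 nuclear speckle proteins 10 rose and none fell in LLC1 males, beside 19.5% of all genes that rose, with a median log2 fold change of 0.27 against 0.01 over all genes tested, and none passed in females. Of 12 paraspeckle proteins 6 rose and none fell in males, against the same 19.5%, and none passed in females. Miat, another nuclear lincRNA, fell in males by 0.80 ± 0.22 (adjusted p = 0.00785), from a median of 2.14 to 1.38 CPM.

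In females, LLC1 changed 31 of the 312 lincRNAs (9.94%), beside 9.92% of all 17773 genes tested. Of these, 11 rose (4.97% of all genes rose) and 20 fell (4.95% of all genes fell). The count was 19 when LLC1 female 2-3 was left out, and 5 of the 31 changed at least 2-fold. In males, 115 changed (36.9%), beside 36.3% of all genes. There 46 rose (19.5% of all genes rose), 69 fell (16.8% of all genes fell), and 19 changed at least 2-fold. In both sexes the share of lincRNAs called was near that of all genes. The median log2 fold change was -0.01 over the lincRNAs in females and in males, and -0.01 and 0.01 over all genes. Among the 178 that share no reads, 21 were called in females and 74 in males. Among the 75 at least 5 kb from any coding gene, 3 rose and 11 fell in females, and 9 rose and 26 fell in males. Groups did not overlap at all for 18 lincRNAs in females, of which 15 were called, beside 6.55% of all genes, and for 32 in males, all of them called, beside 10.3% of all genes. The selection by mean level enters these counts. Over the vehicle libraries 8 of the 312 lay under 1 CPM and reached the minimum through the LLC1 mice, among them Gm16548, AI662270, Gm13833, 0610043K17Rik, A730036I17Rik and Gm17249. Without these 8, 7 rose in females and 42 in males. Over the LLC1 libraries 9 lay under 1 CPM and reached it through the vehicle mice, among them AU020206, Gm13490, Gm13943 and Mirg. Without these 9, 18 fell in females and 62 in males.

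The sexes went the same way more often than not. The 2 LLC1 comparisons have no mouse in common. Over the 312 lincRNAs, 217 had the same sign in both, with Pearson's r = 0.77 and Spearman's rho = 0.672 across genes, which are not independent of each other. All 23 called in both sexes kept their sign, 5 rising and 18 falling, and they made up 74.2% of the female and 20% of the male calls. The selection by mean level over both sexes enters this count as well. Of those rising, Gm16548 and AI662270 reached the minimum only through the LLC1 mice. Of those falling, AU020206 and Gm13943 reached it only through the vehicle mice. The interaction of LLC1 with sex, tested in the same edgeR fit, called 0 of the 312 and 0 % of all genes. At an unadjusted p under 0.05, 40 of the 312 and 2191 of 17773 genes stood out, and DESeq2 also called 0 lincRNAs. A lincRNA called in 1 sex alone is therefore not shown to differ between the sexes.

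**Figure D1:**
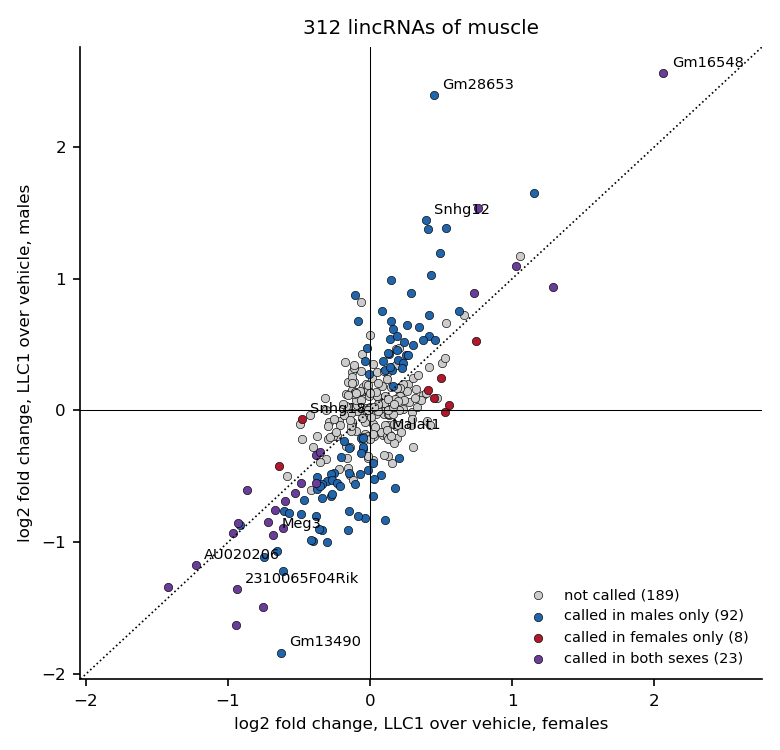
Log2 fold change of LLC1 over vehicle in females (horizontal) and males (vertical) for each of the 312 lincRNAs, coloured by where it was called; the dotted line marks equal change. The 23 called in both sexes lie in the upper right or lower left, and Gm28653 stands high in males at 2.39 with 0.45 in females.

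Markers of other cells moved with the tumour. The 11 neutrophil markers summed to at most 9.51 CPM in any vehicle mouse and at least 69.3 CPM in any LLC1 mouse, and all 11 rose in each sex. The 7 erythroid markers summed to 426 to 1083 CPM in vehicle mice and 1211 to 19990 CPM in LLC1 mice, and all 7 rose in each sex. Of 7 markers of fibro-adipogenic progenitors, 3 fell and 1 rose in females and 5 fell and 1 rose in males, and their sum was 2223 to 4303 CPM in vehicle mice and 1533 to 2795 CPM in LLC1 mice. Of 6 endothelial markers 2 rose and none fell in females, and 2 rose and 3 fell in males. Of 5 lymphocyte markers tested none passed in females, and 3 rose in males. None of 6 adipocyte markers passed. Of 11 macrophage markers none passed in females, and 2 rose and none fell in males. None of these markers was at 0 over all libraries together, and single groups were not checked for this. Their part in the lincRNA results was not tested. In whole muscle, fewer cells of a type and less RNA per cell cannot be told apart.

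Of the imprinted lincRNAs of chromosome 12, Meg3 fell with LLC1 in both sexes and Mirg in males. They are made from the maternal chromosome between Dlk1 and Dio3, as a chain that begins with Meg3, goes on through Rian and ends in Mirg, and carries snoRNAs and microRNAs along its length. Meg3 is best known as a growth-restraining RNA. In females Meg3 was 39.7, 49.3 and 69.5 CPM (lowest, median and highest) in vehicle mice and 27.8, 28.8 and 46.5 CPM in LLC1 mice. A single LLC1 female, 2-5, reached into the vehicle range. In males it was 22.1, 25.8 and 32.0 CPM in vehicle mice and 8.23, 13.3 and 20.1 CPM with LLC1, and the groups did not overlap. The log2 fold change was -0.68 ± 0.18 in females (adjusted p = 0.0167) and -0.94 ± 0.18 in males (adjusted p = 0.000533). Without vehicle female 2-2 the female value was -0.55 with adjusted p = 0.0563.

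Mirg, the microRNA host at the far end of the chain, was 0.596, 0.972 and 1.24 CPM in vehicle males and 0.165, 0.429 and 0.795 CPM in LLC1 males, so the groups overlapped. As a description, since Mirg reached the minimum only through the vehicle mice, it fell there by 1.06 ± 0.30 on the log2 scale. In females its medians were 1.71 and 1.34 CPM and the change of -0.66 ± 0.25 did not pass (adjusted p = 0.0926). Gm26906 lies over the last exons of Meg3 on the other strand and shares its reads, so its changes of -0.67 in females and -0.76 in males are not separate evidence. Rian, which the table classes as a processed transcript and not a lincRNA, gave -0.84 ± 0.21 and -0.998 ± 0.22. Rtl1, the paternal retrotransposon-derived gene whose antisense lies in the chain, fell in males by 0.78 ± 0.27, and Dlk1 at -0.74 ± 0.34 and Dio3 at 0.41 ± 0.32 did not pass there.

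H19, an imprinted gene on chromosome 7, did not pass the test with LLC1. It was 710, 756 and 975 CPM in vehicle females, 534, 712 and 1121 in LLC1 females, 242, 319 and 701 in vehicle males and 307, 395 and 568 in LLC1 males. The groups overlapped in each sex, and the log2 fold changes were -0.02 ± 0.21 and 0.14 ± 0.21 (adjusted p = 0.961 and 0.640).

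**Figure D2:**
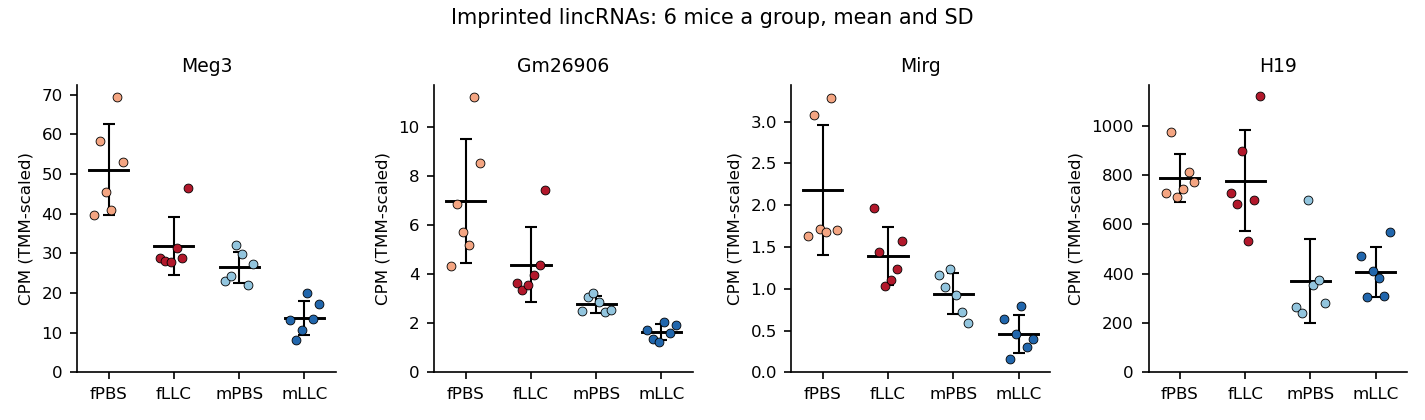
CPM of Meg3, Gm26906, Mirg and H19 in each of 24 mice by group; bars give the mean and SD of 6 mice. Males sit below females in vehicle mice for all 4 genes, and Meg3 is lower with LLC1 in both sexes while H19 is not.

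Sex also separated these genes without a tumour. That comparison, vehicle males minus vehicle females, uses the same vehicle mice as the LLC1 comparisons and its values are given side by side with them for that reason. It called 21 of the 312 lincRNAs (6.73%), beside 6.23% of all genes, 11 higher in males (3.28% of all genes) and 10 lower (2.95% of all genes). The selection by mean level enters these counts too. Of the 312, 18 lay under 1 CPM in vehicle males and 8 in vehicle females, and the calls were not recounted without them. H19 was lower in males by 1.09 ± 0.22 on the log2 scale (adjusted p = 0.00321). No vehicle male reached the lowest vehicle female, though male 1-3, at 701 CPM against 242 to 374 in the other 5, came close. Meg3 was lower by 0.95 ± 0.18 (adjusted p = 0.00185) and Rian by 1.51 ± 0.22, again with no overlap of the vehicle groups. Mirg had medians of 0.972 CPM in vehicle and 0.429 CPM in LLC1 males, and reached the minimum through the females. As a description, it was lower in vehicle males by 1.21 ± 0.26, also without overlap. Of 8 imprinted lncRNAs on the list that were tested, 5 were lower in males, beside 2.95% of all genes, and none was higher. Meg3, Rian and Mirg, among these 5, belong to the chain between Dlk1 and Dio3 described above, so the genes counted are not independent.

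Gm14319, at least 5 kb from any coding gene on chr2:167858585-167862542, was 3.28, 3.45 and 6.32 CPM in vehicle females and 1.05, 1.47 and 2.42 in vehicle males. It was lower in males by 1.41 ± 0.20 (adjusted p = 7.18e-05), and in males it rose with LLC1 by 0.65 ± 0.21. A530020G20Rik reached the minimum through the females, with 1.217 to 4.285 CPM in vehicle females and 0.724 to 1.324 CPM in vehicle males. As a description, it was lower in vehicle males by 1.47 ± 0.30, with overlapping groups. Gm13490, on chr2:51656966-51732009, went the other way: it was 0.898, 1.08 and 1.65 CPM in vehicle females and 2.58, 3.02 and 3.87 in vehicle males, without overlap. That difference of 1.42 ± 0.39 (adjusted p = 0.0298) missed the threshold in 8 of 24 omissions of a library, with adjusted p up to 0.0714, and 0.0617 with no filter on low counts. Gm13490 reached the minimum only through the vehicle mice. As a description, it fell in LLC1 males by 1.84 ± 0.40, to 0.0551, 0.593 and 2.62 CPM. Malat1 was higher in vehicle males by 0.41 ± 0.12 (adjusted p = 0.0409), a call lost in 10 of 24 omissions.

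Of the 7 listed snoRNA hosts among the lincRNAs, 4 rose in LLC1 males (Snhg1, Snhg12, Snhg6 and 2410004N09Rik), beside 19.5% of all genes. Snhg7, Snhg18 and 2810008D09Rik did not pass there. These genes carry box C/D or H/ACA snoRNAs in their introns, which guide chemical modification of ribosomal RNA, and their spliced RNA is usually short-lived. Snhg1 was 6.22, 6.52 and 6.81 CPM in vehicle males and 7.89, 15.9 and 29.7 CPM in LLC1 males. Snhg12 was 3.29, 3.64 and 4.28 and then 4.90, 8.88 and 18.6 CPM. Snhg6 went from 6.66, 7.79 and 9.17 to 10.1, 13.2 and 21.6 CPM. Every LLC1 male lay above every vehicle male for all 3 genes. The log2 fold changes were 1.38 ± 0.24 for Snhg1, 1.45 ± 0.25 for Snhg12 and 0.89 ± 0.16 for Snhg6, with adjusted p = 0.000215, 0.000199 and 0.000282. 2410004N09Rik (Epb41l4aos in M21), on chr18:33794892-33795986, rose in males by 1.54 ± 0.23 (adjusted p = 4.09e-05), from 1.06, 1.24 and 1.82 to 2.40, 3.28 and 7.27 CPM.

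In females most of these hosts did not pass, and no difference between the sexes passed. Snhg1 was 5.22, 5.93 and 8.17 CPM in vehicle females and 7.19, 8.33 and 10.9 CPM in LLC1 females, a change of 0.40 ± 0.24 that did not pass (adjusted p = 0.294). Snhg12 gave 0.39 ± 0.25 and Snhg6 0.28 ± 0.16, which did not pass either. 2410004N09Rik rose in females by 0.76 ± 0.23 (adjusted p = 0.0329), a call that ended without LLC1 female 2-4 (adjusted p = 0.0861), vehicle female 1-4 (0.0580) or vehicle female 2-1 (0.0668). The interactions were 0.97 ± 0.33 for Snhg1, 1.06 ± 0.35 for Snhg12, 0.61 ± 0.23 for Snhg6 and 0.77 ± 0.32 for 2410004N09Rik, with adjusted p of 0.286, 0.283, 0.308 and 0.344. Snhg18 fell in females by 0.48 ± 0.12 (adjusted p = 0.0123), with 3.11, 3.90 and 5.43 CPM in vehicle and 2.69, 2.90 and 3.23 CPM in LLC1 mice. That call ended without vehicle female 2-2 (adjusted p = 0.0509). In males Snhg18 changed by -0.07 ± 0.12.

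Over the whole list of 21 snoRNA hosts of any class, 17 were tested. In males 8 rose and none fell, beside 19.5% and 16.8% of all genes, with a median log2 fold change of 0.37 against 0.01 over all genes. In females 1 rose and 1 fell, beside 4.97% and 4.95%, with a median of 0.14 against -0.01. The other 4 that rose in males are not classed as lincRNA or lie under the minimum: Gas5, the growth arrest RNA, at 1.06 ± 0.19, 1500012F01Rik (Zfas1) at 1.04 ± 0.19, Snhg5 at 0.94 ± 0.16 and Gm11974 (Snhg15) at 0.76 ± 0.21. Snhg7 and 2810008D09Rik (Snhg20) stood at 0.17 ± 0.15 and 0.37 ± 0.17. The LLC1 males differed among themselves in a common order. Mice 1-5, 2-1 and 2-4 held the 3 highest values for all 8 hosts, and mouse 1-5 was the highest in 6 of them.

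**Figure D3:**
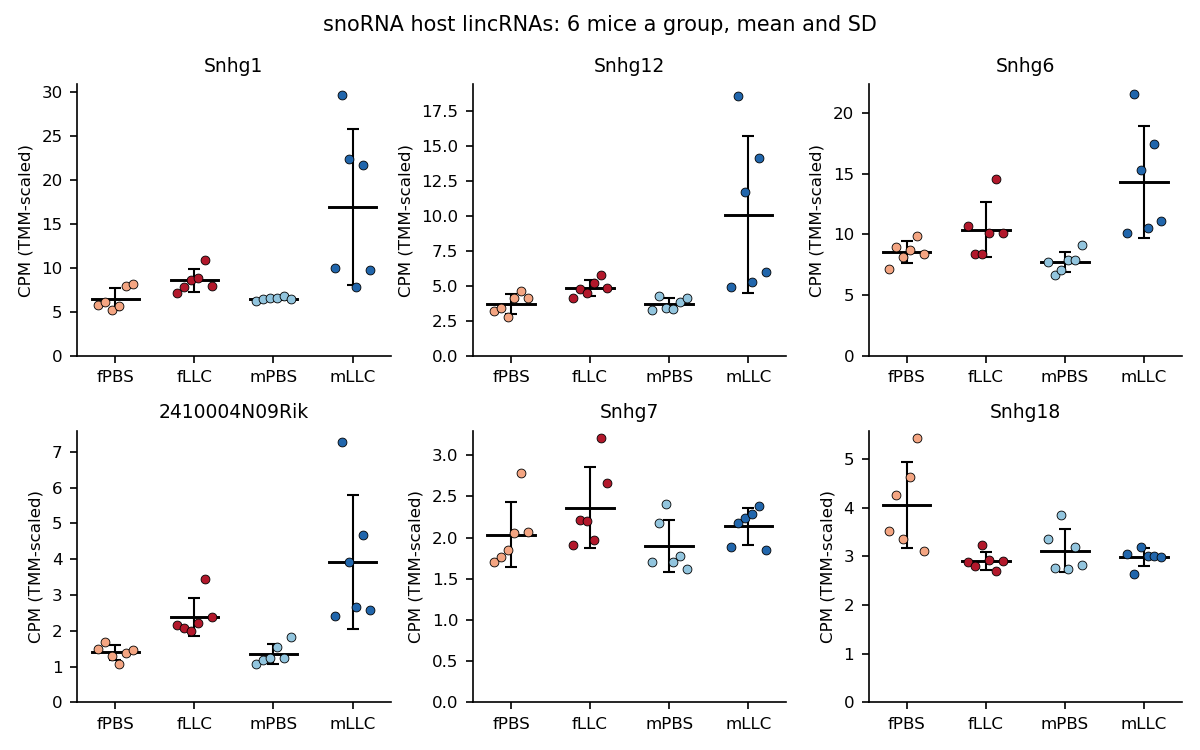
CPM of 6 snoRNA host lincRNAs in each of 24 mice by group, with the mean and SD of 6 mice. In Snhg1, Snhg12, Snhg6 and 2410004N09Rik the LLC1 males lie above all vehicle males and spread widely, while Snhg7 shows no such step and Snhg18 differs in females.

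The microRNA hosts showed several directions. Gm28653 spans miR-206 and miR-133b on chr1:20679023-20684298, the locus of the muscle lincRNA known as linc-MD1. These microRNAs are known for their rise in regenerating and denervated muscle. Gm28653 was 0.561, 0.947 and 1.32 CPM in vehicle males and 0.464, 4.40 and 10.3 CPM in LLC1 males. Of the 6 LLC1 males, 5 lay above every vehicle male and 1 lay below them all. Its log2 fold change was 2.39 ± 0.57 (adjusted p = 0.00300). In females it was 2.17, 3.58 and 8.76 CPM with vehicle and 2.31, 4.29 and 12.7 CPM with LLC1, and the change of 0.45 ± 0.50 did not pass. Vehicle males were lower than vehicle females by 2.21 ± 0.57 (adjusted p = 0.0224), a call that ended without vehicle female 1-1 (adjusted p = 0.0595), vehicle male 1-2 (0.0542) or vehicle male 2-4 (0.0527), and with no filter on low counts (0.0520). The vehicle males are the base of both differences.

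Gm27028, which spans miR-30c-2 and was picked for that and not by the naming rule, was 0.765, 1.28 and 1.59 CPM in vehicle males and 0.551, 0.667 and 0.929 in LLC1 males. It fell by 0.83 ± 0.18 (adjusted p = 0.00118) and gave 0.11 ± 0.17 in females. Mir143hg (Carmn in M21), host of miR-143 and miR-145 of smooth muscle, fell in males by 0.53 ± 0.13 (adjusted p = 0.00360) and gave -0.27 ± 0.13 in females. Mir17hg, the precursor of the miR-17 to miR-92a cluster of growing cells, gave 0.30 ± 0.16 and 0.25 ± 0.16 and did not pass. On the list of 15 microRNA hosts of any class, 9 were tested. In males 5 of these fell and none rose, beside 16.8% and 19.5% of all genes, and in females 1 fell and none rose, beside 4.95% and 4.97%. Gm28653 and Gm27028 are not on that list.

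Among the muscle lincRNAs outside these families, 2310065F04Rik lies in the cluster of skeletal myosin heavy chain genes, 10.2 kb from Myh3, 50.9 kb from Myh2 and 117.9 kb from Myh4, the fast IIb myosin. It was 89.6, 109 and 117 CPM in vehicle males and 12.7, 27.8 and 80.7 CPM in LLC1 males. It was 56.8, 67.0 and 98.5 CPM in vehicle females and 24.9, 38.4 and 47.7 CPM in LLC1 females. The groups did not overlap in either sex. The log2 fold change in males was -1.36 ± 0.30 (adjusted p = 0.00179). In females it was -0.94 ± 0.30 at an adjusted p just under the threshold, and the call ended in 21 of 24 omissions of a library, with adjusted p up to 0.135. The myosins of the cluster had smaller values. In males Myh3 gave -0.34 ± 0.11, Myh8 -0.37 ± 0.11 and Myh1 -0.34 ± 0.11, which passed, and Myh4 -0.30 ± 0.13 and Myh2 -0.34 ± 0.14, which did not. None of the 6 myosins of the cluster passed in females.

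Several lincRNAs of no known function fell in both sexes. AU020206 was 1.87, 2.06 and 2.94 CPM in vehicle females and 0.760, 0.888 and 1.31 in LLC1 females, then 1.47, 1.68 and 3.56 in vehicle males and 0.365, 1.01 and 1.34 in LLC1 males. AU020206 reached the minimum only through the vehicle mice, with 2.11 CPM over the vehicle and 0.929 over the LLC1 libraries. As a description, its groups were apart in each sex, with log2 fold changes of -1.23 ± 0.24 and -1.17 ± 0.24. RP23-103B18.8 (Gm32200 in M21) was 4.04, 5.30 and 6.17 CPM in vehicle females and 1.39, 1.83 and 3.08 in LLC1 females. It fell by 1.42 ± 0.33 in females and 1.34 ± 0.34 in males, where mice 1-4 and 2-2 stayed at 3.88 and 3.02 CPM beside 0.413 to 1.10 CPM in the other 4. The same 2 males were the highest of their group for 2310065F04Rik and Gm13490, and both were among the lowest 3 of their group for all 8 snoRNA hosts that rose.

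Others followed. 2310016D03Rik fell by 0.95 ± 0.24 in females and 1.63 ± 0.24 in males, where its groups of 2.81 to 4.88 and 0.496 to 2.02 CPM did not overlap. The female call ended without LLC1 female 2-3 (adjusted p = 0.0506). 4632428C04Rik fell by 0.93 ± 0.19 and 0.85 ± 0.19, and both calls held without any 1 of the 24 libraries. Its nearest coding gene, Hes1, a Notch target 43.0 kb away, fell too, by 0.39 and 0.54. 2310040G24Rik, at 54.8 CPM one of the more abundant, fell by 0.72 ± 0.19 and 0.85 ± 0.19. Its female call ended without LLC1 female 1-4, LLC1 female 2-3 or vehicle female 2-1, with adjusted p of 0.0506, 0.0623 and 0.0560. Gm13943 reached the minimum only through the vehicle mice and is only described: it fell in males by 1.49 ± 0.25. 1700020I14Rik, the most abundant of the 69 that fell in males, was 780, 1046 and 1131 CPM in vehicle males and 352, 631 and 818 in LLC1 males, a change of -0.65 ± 0.14 (adjusted p = 0.000883). In females it gave -0.27 ± 0.13 and did not pass, although the groups of 796 to 973 and 640 to 790 CPM did not overlap. Dubr, listed as 5330426P16Rik and known from myoblast differentiation, fell in males by 0.49 ± 0.15 (adjusted p = 0.0130).

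Of 12 lncRNAs of any class listed for muscle and growth that were tested, 3 rose and 3 fell in males, beside 19.5% and 16.8% of all genes, and 1 fell in females, beside 4.95%. Those that fell in males were Meg3, Miat and Dubr, and Pvt1, the lincRNA next to Myc, gave 0.34 ± 0.17 and did not pass. 5430416O09Rik (Spaar in M21), which encodes a small lysosomal polypeptide that restrains mTORC1, is classed as lincRNA here and fell in males by 0.35 ± 0.14. That call ended in 17 of 24 omissions of a library, with adjusted p up to 0.145. A330094K24Rik fell in males by 1.21 ± 0.25 and 2310016D23Rik by 1.11 ± 0.30, and neither passed in females at -0.61 and -0.75. 2310015K22Rik fell by 0.87 ± 0.21 in females and 0.60 ± 0.21 in males, where 5 of 24 omissions ended the call, with adjusted p up to 0.0764, and 0.0504 with no filter on low counts.

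**Figure D4:**
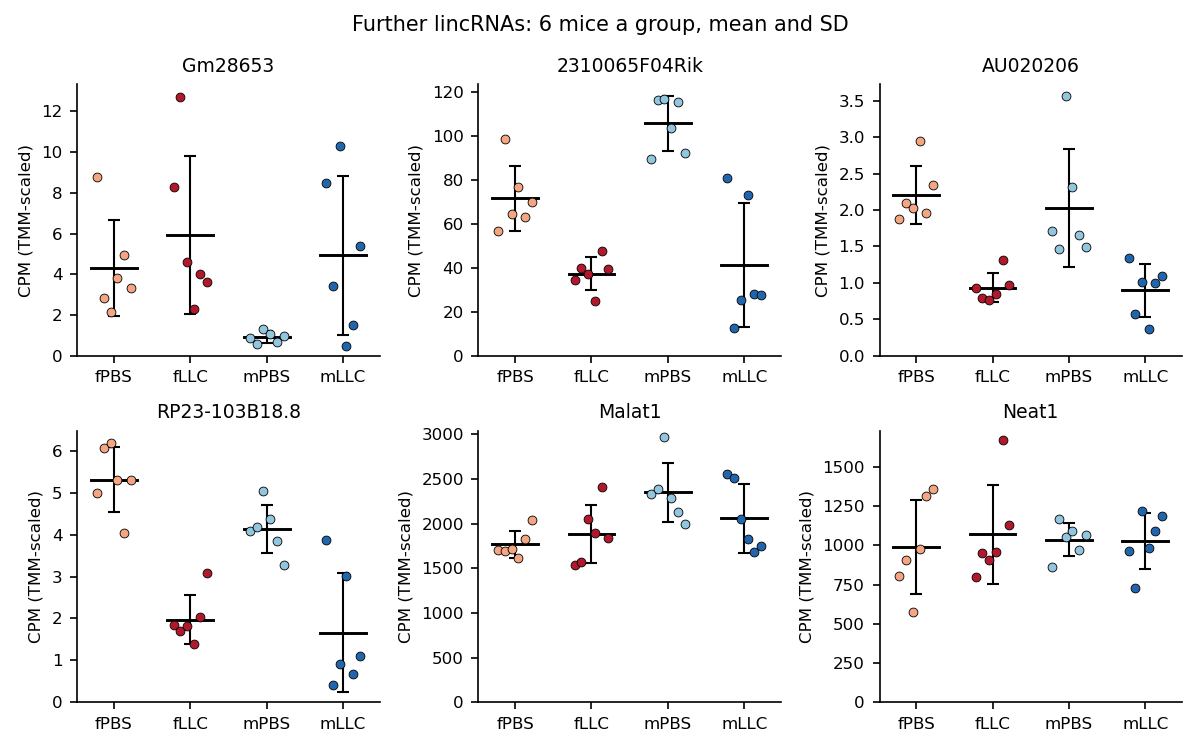
CPM of Gm28653, 2310065F04Rik, AU020206, RP23-103B18.8, Malat1 and Neat1 in each of 24 mice by group, with the mean and SD of 6 mice. 2310065F04Rik and AU020206 are lower with LLC1 in both sexes without overlap, and Malat1 and Neat1 overlap between vehicle and LLC1.

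The rises in both sexes were fewer. Gm16548 had log2 fold changes of 2.06 ± 0.24 in females and 2.56 ± 0.26 in males. Vehicle females had 0.261 to 0.580 CPM and LLC1 females 1.04 to 2.92 CPM. Vehicle males had 0.175 to 0.331 and LLC1 males 1.18 to 2.20 CPM. It lies on the strand opposite Selp, the P-selectin of activated endothelium and platelets, and shares its reads. Selp itself gave 2.33 and 2.34, so the libraries cannot tell the pair apart. Gm16548 entered the set only through its LLC1 mice, since all vehicle mice were under 1 CPM, and its change is given as a description.

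Gm26908, whose span overlaps Sorbs3 and which is not in M21, was 4.29, 5.02 and 5.47 CPM in vehicle females and 8.00, 10.04 and 12.9 in LLC1 females. It rose by 1.03 ± 0.19 in females and 1.10 ± 0.19 in males (adjusted p = 0.00140 and 0.000196). Sorbs3, the adaptor vinexin of cell adhesions, rose by 0.90 and 0.89. The exons of Gm26908 are unknown here, and whether it takes reads of Sorbs3 could not be settled. 9530026P05Rik, which overlaps Adamts9 on the other strand, rose by 0.73 ± 0.19 and 0.89 ± 0.19. AI662270, 8.4 kb from Slfn3, reached the minimum only through the LLC1 mice, with 0.895 CPM over the vehicle and 2.02 over the LLC1 libraries. As a description, its log2 fold change was 1.29 ± 0.31 in females, and 0.80 without LLC1 female 2-4. In males alone Gm7160, 124 bases from Zcchc2, rose by 1.38 ± 0.23 (adjusted p = 0.000126), from 1.34, 1.84 and 2.51 to 2.29, 4.84 and 7.35 CPM. Zcchc2 rose there by 0.79. Gm26767 rose in males by 1.03 ± 0.22 and gave 0.43 in females without passing. Gm13833, at 0.747 CPM over the vehicle and 1.45 over the LLC1 libraries, also came in through the LLC1 mice, and is only described, at 1.20 ± 0.26 in males and 0.49 in females. In females alone Gm16576 was called, from 9.41 to 11.8 CPM with vehicle against 13.3 to 18.6 CPM with LLC1, a change of 0.52 ± 0.12 (adjusted p = 0.00815) beside -0.01 ± 0.12 in males. Its interaction of -0.53 ± 0.17 did not pass (adjusted p = 0.271).

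The lincRNAs were set beside their nearest protein-coding gene. Among the 130 that share reads and have a tested neighbour, Spearman's rho between both log2 fold changes was 0.748 in females and 0.812 in males, which the shared reads alone can give. It was 0.370 and 0.505 over 110 that share no reads and overlap a coding gene or lie within 5 kb of one, and 0.431 and 0.460 over 53 that lie farther away. These are descriptions across genes, without a test, and neighbours share the libraries. Beside the counts that follow, 36.3% of all genes were called in males. Of the 40 called in males that share reads with a gene and have a tested neighbour, 36 had a called neighbour, all of the same sign. Of the 41 called that share no reads and overlap a coding gene or lie within 5 kb, 21 had one, 19 of the same sign. Of the 24 called that lie at least 5 kb away and share no reads, 15 had one, 13 of the same sign. An effect of neighbours was not tested. Opposite pairs occurred, and 2 are given here that were chosen after their values were seen: 2410004N09Rik rose in males while its neighbour Epb4.1l4a, 341 bases away, fell by 0.68, and 2310040G24Rik fell where C87436 rose by 0.45.

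**Figure D5:**
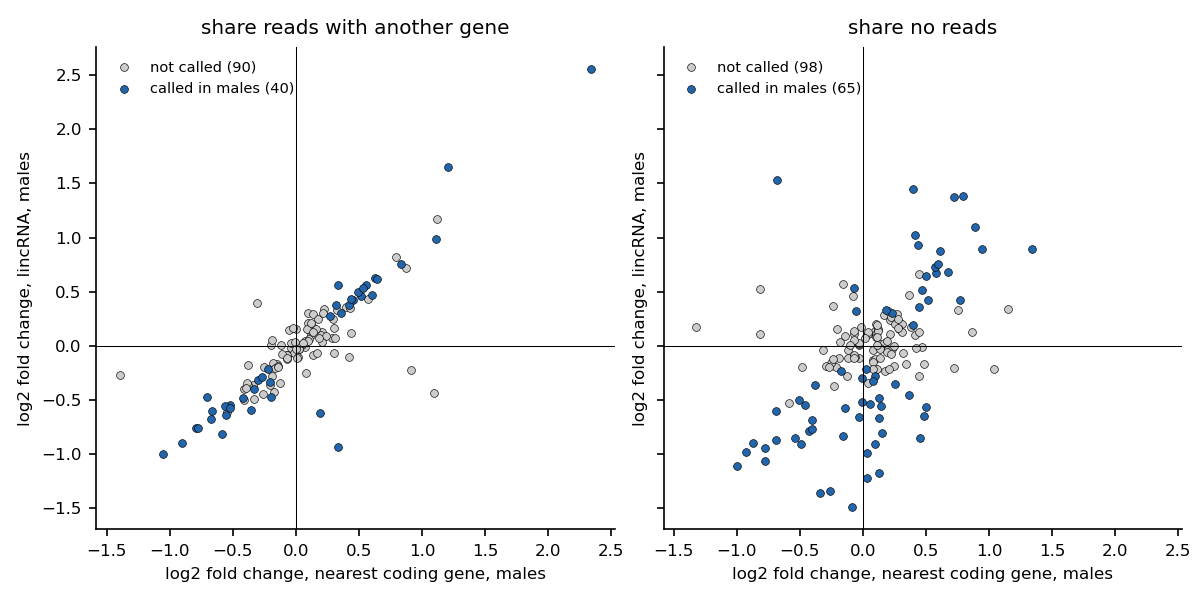
Log2 fold change in males of each lincRNA (vertical) against its nearest coding gene (horizontal), for lincRNAs that share reads with another gene (left) and those that share none (right); blue points were called in males. Most points on the left lie close to a diagonal (rho 0.812), and those on the right scatter more widely.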

How the data were processed

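Poly(A) RNA of gastrocnemius was sequenced from 24 mice, 6 in each of 4 groups. The deposited table holds raw counts per gene for each library, made by the authors with CASAVA, STAR and featureCounts on mm10, per the submitters' processing notes. Versions, options and the annotation used for counting were not given in the sources used here. No strand is kept by the kit, per the labels' protocols, so reads of a gene and an antisense partner cannot be told apart. The titles give each library a mouse number of its own, and a p-value reflects how far such libraries vary. No 2 libraries of a group agreed within sampling noise (chi-square per degree of freedom from 10.05 to 211.2 over 60 pairs). Totals were 26.2 to 47.4 M counts.

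Counts were fitted with edgeR 4.0.16 (R 4.3.3, limma 3.58.1): genes were kept by filterByExpr, scaled by TMM, and fitted as 4 group means with a robust quasi-likelihood F-test on 20 residual degrees of freedom. Adjusted p-values are Benjamini-Hochberg over 17773 genes and were called under 0.05. The fit was tested on simulated counts. Contrasts were LLC1 in females, LLC1 in males, their difference, and sex in vehicle mice.

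The lincRNAs and the gene lists were chosen with earlier results of these data known. The genes named are the 10 of highest mean CPM, up to 10 called higher and 10 called lower with LLC1 in each sex by size of change, up to 5 called by sex, and those of the role lists. Alternatives were DESeq2 1.42.0, RLE factors, no filter, the pair of groups alone, title numbers as a block, each library left out, other minimum levels, distance from coding genes, and, added after seeing the data, the fit without Yam1 and the lincRNAs that share no reads. Exons and newer names were taken from GENCODE M21, in which 293 of the 312 were found by gene ID.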

Additional observations from a re-analysis of the deposited data

Results flagged for a closer look

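In 13 of 220 groups of 6 mice, 1 mouse lay apart from the other 5 by Dixon's test (the gap to the nearest mouse over the whole range). Chance flags about 1 in 20 groups, or 11 here. Among them, 5 genes were high in LLC1 female 2-4: AI662270 at 6.08 CPM beside 1.20 to 2.37, 2310001H17Rik at 28.1 beside 20.97 to 23.5, Snhg6 at 14.6 beside 8.41 to 10.7, 2310015K22Rik at 7.71 beside 3.34 to 4.84, and 2410004N09Rik at 3.46 beside 2.01 to 2.38. In LLC1 female 2-5 Meg3 stood at 46.5 CPM beside 27.8 to 31.5, and Gm26906, which shares its reads, at 7.42 beside 3.37 to 4.37. In vehicle male 1-3 H19 stood at 700.8 CPM beside 242 to 374, and Gm16576 was low at 7.83 beside 12.5 to 13.7. Snhg18 was low in LLC1 male 1-5, at 2.64 CPM beside 2.99 to 3.18, the mouse in which 6 of the 8 snoRNA hosts that rose were highest. The remaining 3 lay in vehicle females: 2310016D23Rik at 2.26 CPM in mouse 1-4 beside 3.77 to 4.62, 2310016D03Rik at 3.50 in mouse 2-1 beside 2.17 to 2.62, and Snhg7 at 2.79 in mouse 2-2 beside 1.70 to 2.06.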

How the results depend on the processing

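With LLC1 in females, 31 lincRNAs were called, and in males 115. DESeq2 gave 37 and 116, RLE factors 30 and 115, no filter on low counts 25 and 94, and the pair of groups alone 43 and 102. For sex in vehicle mice, with 21 called, DESeq2 gave 27, RLE factors 21 and no filter 18. Leaving out 1 library gave 19 to 39 in females, 88 to 130 in males and 15 to 24 by sex, and 14 of the 31, 80 of the 115 and 11 of the 21 were called in every omission. The interaction called 0 under each alternative run. Counting fewer lincRNAs lowered the counts by construction: at least 5 kb from a coding gene 14, 35 and 10 were called, and among those that share no reads 21, 74 and 15. The title numbers do not pair the mice: deviations of same-numbered mice correlated at 0.066, -0.231 and -0.171 in females and -0.064, -0.019 and -0.007 in males. With the full title number as a replicate block 4, 62 and 6 were called, and with its first number 34, 113 and 23; the cause was not tested. No named lincRNA reversed its direction in a comparison where it was called. Changes that were not called, and the interaction, were not checked for this. Calls were lost on omission at high levels too: 2310065F04Rik lost its female call in 21 of 24 omissions and Malat1 its call by sex in 10. Counting error per gene was not separated from the spread between mice.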
